A study of Mus musculus with 6 samples.

Results

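Immunoglobulin variable (V) segments, taken as the rows of the deposited gene table with the biotype IG_V_gene, were described across 6 mouse colon libraries. There were 218 of them among 54532 genes. They comprised 113 heavy chain segments (Ighv, chromosome 12), 100 kappa segments (Igkv, chromosome 6), 3 lambda segments (Iglv, chromosome 16) and 2 predicted genes on chromosome 6, which entered the total but no chain. The study compared the colon of wild type mice (WT) with that of mice with the genotype IL10-/-, labelled IL10-KO, with 3 libraries each. All mice were C57BL/6 and 56 days old. Interleukin 10 is an anti-inflammatory cytokine, and its loss in mice is a model of chronic colitis. The allele is not named in the labels, and no label says whether the libraries of a group came from different mice, so the p-values reflect only the spread between these libraries.

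A B cell builds each immunoglobulin chain by joining a V segment to a J segment, with a D segment between them in the heavy chain, and the joined exon is spliced to a constant gene. The V segment encodes most of the antigen-binding domain, and the descendants of a B cell keep its choice of V segments. In the gut, most immunoglobulin RNA comes from plasma cells of the lamina propria, which mainly secrete IgA, and mouse light chains are far more often kappa than lambda.

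Levels are FPKM, which relate fragments to gene length and to library size. Whole reads were recovered from these values and totalled 13107941 to 15797928 per library, of which V segments took 843 to 16018. Il10 RNA was, in order of libraries 1 to 3 as for all values below, 0.757, 0.173 and 0.177 FPKM in the WT libraries and 13.8, 10.6 and 14.5 FPKM in the IL10-KO-labelled ones. It was thus higher where the label says knockout, and all directions given here follow the labels. The 10 colon epithelium markers all had reads in every library. They summed to 2954, 38526 and 2172 FPKM in WT and 12730.5, 6674 and 4898 FPKM in the IL10-KO-labelled libraries. WT library 2 stood apart through Car1, which made most of its sum, at 31511 FPKM against 117 to 5716 FPKM elsewhere. WT library 3 stood apart with 43.4% mitochondrial reads, against 8.61 to 22% elsewhere, and with 8898 FPKM over 9 smooth muscle markers, against 178 to 1462 FPKM. WT library 1 stood apart in the V segments themselves, and results that rest on it are given with and without it. Over all genes it was not the odd library. Limma library weights, low where a library departs from its group, were 2.76, 0.198 and 0.465 in WT and 1.01, 2.62 and 1.49 in the IL10-KO-labelled libraries. Results without WT library 1 thus rest on the WT libraries with the lowest weights.

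V segment RNA was abundant in WT library 1 and in all 3 IL10-KO-labelled libraries, and scarce in WT libraries 2 and 3. Summed over all segments it was 2686, 181 and 177 FPKM in WT and 1897, 1328 and 1002 FPKM in the IL10-KO-labelled libraries. The highest and the lowest sums were both WT, so the groups overlapped. The mean log2 sum was 8.79 ± 2.26 in WT and 10.41 ± 0.46 in the IL10-KO-labelled libraries (SD, n = 3). The difference of 1.63 had p = 0.4 in an exact two-sided permutation test, which with 3 against 3 libraries cannot go below 0.1. Without WT library 1 it was 2.93 and the groups no longer overlapped. In bulk tissue, fewer cells of a type and less RNA per cell cannot be told apart.

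In each chain WT library 1 was far above the other WT libraries, by different factors. Heavy chain segments summed to 400.001, 49.1 and 74.3 FPKM in WT, against 303, 357 and 212 FPKM in the libraries labelled IL10-KO (log2 difference 1.33, exact permutation p = 0.4). Kappa segments summed to 2105, 122 and 88.9 FPKM in the WT libraries and 895, 850.3 and 693 FPKM in the IL10-KO-labelled ones (log2 difference 1.51, exact permutation p = 0.4). Lambda segments summed to 181, 9.0 and 14.1 FPKM in WT and 698, 121 and 97 FPKM in the IL10-KO-labelled libraries (log2 difference 2.83, exact permutation p = 0.3). In every chain WT libraries 2 and 3 lay below all 3 IL10-KO-labelled libraries. WT library 1 lay above all of them for heavy and kappa, and below the first of them for lambda. Without WT library 1 the log2 differences were 2.23 for heavy, 2.95 for kappa and 4.16 for lambda. The lowest values on leaving out a library were 0.72 for heavy without WT library 2, 0.67 for kappa without WT library 3 and 1.93 for lambda without the library labelled IL10-KO 1. Heavy segments made 14.9%, 27.2% and 41.9% of all V segment FPKM in WT, against 16%, 26.9% and 21.2% in the libraries labelled IL10-KO (difference -6.65 percentage points, exact permutation p = 0.6). The groups overlapped through WT library 1. Without it the difference was -13.2 and they did not overlap, but only just: WT library 2 held 27.2% and the library labelled IL10-KO 2 held 26.9%. Without WT library 3 the difference was 0.299.

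**Figure D1:**
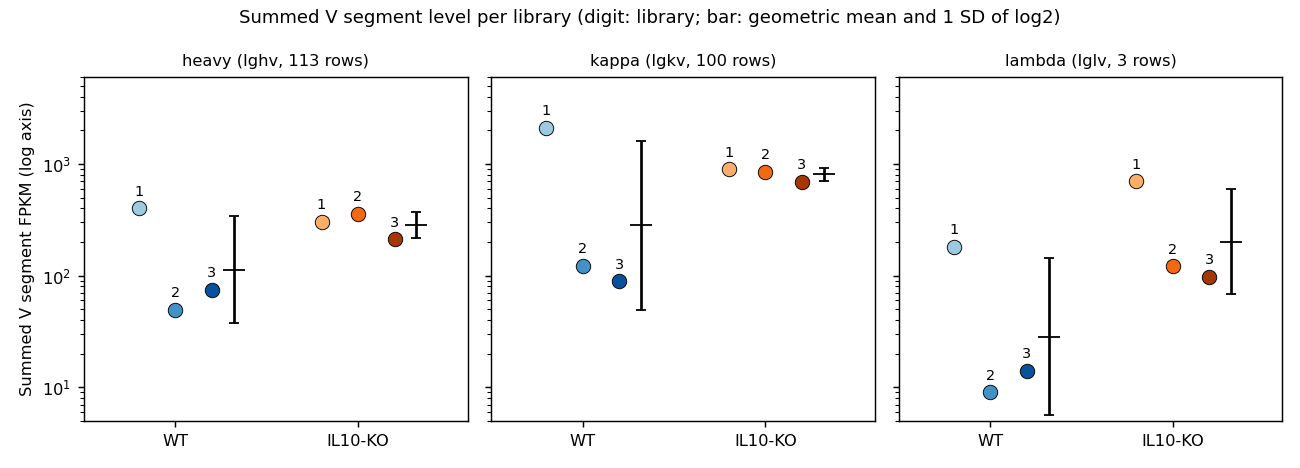
Summed FPKM of the heavy, kappa and lambda V segments in each library, on a log axis. Each point is a library with its number, and the bar is the geometric mean with 1 SD of the log2 values (n = 3). WT libraries 2 and 3 lie below the IL10-KO-labelled libraries in each panel, and WT library 1 lies above all of them for heavy and kappa and below the first of them for lambda.

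Markers of plasma cells and of B cells varied between the libraries in different ways. The 14 plasma cell markers summed to 638, 202 and 153 FPKM in the WT libraries and 568, 331 and 315 FPKM in the IL10-KO-labelled ones, and none was at 0 reads in any library. WT libraries 2 and 3 were the lowest. WT library 1 was the highest with Jchain included but not without it: the other 13 markers summed to 229, 140.1 and 126 FPKM in WT and 234, 219.7 and 206 FPKM in the IL10-KO-labelled libraries. That sum includes Xbp1, at 66.7 FPKM in WT library 1 and 97.6 FPKM in the library labelled IL10-KO 1. Txndc5, Mzb1, Derl3, Tnfrsf17, Tnfrsf13b, Irf4, Slamf7 and Eaf2 were each highest in WT library 1, unlike Xbp1, Sdc1, Fkbp11, Pou2af1 and Prdm1. Jchain, which joins IgA into dimers, was 409.5, 62 and 27.3 FPKM in WT, against 334, 112 and 109 FPKM in the libraries labelled IL10-KO. Mzb1, an endoplasmic reticulum protein of antibody-secreting cells, was 33.9, 1.09 and 4.87 FPKM in the WT libraries and 24.9, 11.9 and 10.4 FPKM in the IL10-KO-labelled ones. Not every marker followed this order: Sdc1, a surface proteoglycan that epithelium also carries, was 23.8, 62.3 and 14.1 FPKM in WT and 33.7, 58.9 and 49.5 FPKM in the IL10-KO-labelled libraries. The 13 of 14 B cell markers found in the table summed instead to 68.1, 4.27 and 10.4 FPKM in WT, against 78.7, 6.75 and 7.99 FPKM in the libraries labelled IL10-KO. WT library 1 and the library labelled IL10-KO 1 thus stood above the other 4. B cell markers at 0 reads numbered 0, 1 and 0 in the WT libraries and 0, 2 and 3 in the IL10-KO-labelled ones. Smooth muscle markers also went with the label: their sum was 1462, 1277 and 8898 FPKM in the WT libraries and 1017, 178 and 918 FPKM in the IL10-KO-labelled ones. Of the 9 tested, 8 were lower in every IL10-KO-labelled library than in every WT library, against 7.89% of all genes, with a median log2 fold change of -2.10 and 0 called by limma (3 at an unadjusted p under 0.05). The part of these cell types in the V segment values was not tested.

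No single V segment passed the test between the groups. Of the 218 segments 31 had no read in any library, and 131 passed the filter of a mean of at least 1 FPKM over the 6 libraries (55 heavy, 73 kappa and 3 lambda). In limma on log2(FPKM + 1), with Benjamini-Hochberg adjustment over all 12668 genes tested, 0 of the 131 were called at an adjusted p under 0.05, against 0.182% of all genes called higher and 0% lower. At an unadjusted p under 0.05, 13 were higher and 0 lower in the IL10-KO-labelled libraries, against 6.14% and 4.03% of all genes. The filter lets in segments through the group where they are high, and the 13 include such segments. Voom on the recovered reads also called 0 and had 13 higher at an unadjusted p under 0.05. Other fits gave other counts: without WT library 1 54 were higher and 0 lower at an unadjusted p under 0.05, and with a weight per library 9 were higher and 21 lower. The median log2 fold change was 0.49 over these segments and 0.04 over all genes. Of the 131 segments 99 were above 0, against 54.1% of all genes. The median was 0.19 without WT library 2 and 0.13 without WT library 3, with 72 and 75 segments above 0. The highest value lay in WT library 1 for 72 segments, in WT libraries 2 and 3 for 1 and 2, and in the IL10-KO-labelled libraries for 17, 19 and 20. Without WT library 1 the median was 1.36, with 121 segments above 0, and 1 segment, Igkv8-28, was called (adjusted p = 0.0304 by limma). With a weight per library the median was -0.54, with 35 segments above 0. Fold changes on this scale understate the change of low genes.

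In 9 of the 131 segments (6.87%) every IL10-KO-labelled library lay above every WT library, and in 0 below, against 8.84% and 7.89% of all genes. The share of higher segments was near that of all genes. The 5 with the highest fold changes were Igkv8-28, Igkv1-110, Igkv7-33, Ighv1-78 and Ighv7-1. Igkv8-28 was 8.04, 0 and 0 FPKM in WT and 32.1, 17.2 and 16.7 FPKM in the IL10-KO-labelled libraries (log2 fold change 3.40, SE 0.86, adjusted p = 0.293). Igkv1-110 was 38, 5.86 and 0.579 FPKM in WT, against 55.9, 72.5 and 94.8 FPKM in the libraries labelled IL10-KO (log2 fold change 3.30, SE 1.06, adjusted p = 0.398). In both, WT library 1 held most of the WT signal. Igkv7-33 was 1.19, 0 and 0 FPKM in the WT libraries and 6.51, 7.14 and 12.6 FPKM in the IL10-KO-labelled ones (log2 fold change 2.86, SE 0.40, adjusted p = 0.0687). That adjusted p was the smallest of any V segment, and over the alternatives the smallest ranged from 0.0184 to 0.355. Ighv1-78 was 1.98, 0.201 and 2.88 FPKM in WT and 22.5, 8.12 and 4.89 FPKM in the IL10-KO-labelled libraries, and Ighv7-1 was 1.54, 0.209 and 0 FPKM in WT, against 2.4, 16.6 and 3.38 FPKM in the libraries labelled IL10-KO (adjusted p = 0.346 and 0.385 by limma). Ighv3-8, named after its values were seen, had no WT read and was 1.81, 1.94 and 2.96 FPKM in the IL10-KO-labelled libraries. That is at least 12.3-fold higher when 3 reads over the whole WT group are taken as its limit (adjusted p = 0.0752). Ighv3-8 passed the filter of 1 FPKM only through the libraries where it was high. So did Igkv7-33 and Ighv7-1, with WT means of 0.396 and 0.582 FPKM. The values and adjusted p of these segments thus lend no support to a difference.

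The 2 most abundant lambda segments are shown first, since reads must tell them apart. These are the last 300 of 305 bases of the coding V exon of Iglv1 (chr16:19085017-19085316) and Iglv2 (chr16:19260401-19260700), from GENCODE M21, on the minus strand of GRCm38. Capitals mark the 8 bases that differ, and the longest stretch without a difference is 104 bases.
Iglv1: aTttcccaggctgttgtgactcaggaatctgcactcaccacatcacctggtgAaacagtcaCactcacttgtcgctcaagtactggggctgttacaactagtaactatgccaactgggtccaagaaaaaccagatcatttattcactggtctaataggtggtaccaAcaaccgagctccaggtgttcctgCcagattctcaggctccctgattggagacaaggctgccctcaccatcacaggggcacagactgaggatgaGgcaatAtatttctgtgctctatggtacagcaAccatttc
Iglv2: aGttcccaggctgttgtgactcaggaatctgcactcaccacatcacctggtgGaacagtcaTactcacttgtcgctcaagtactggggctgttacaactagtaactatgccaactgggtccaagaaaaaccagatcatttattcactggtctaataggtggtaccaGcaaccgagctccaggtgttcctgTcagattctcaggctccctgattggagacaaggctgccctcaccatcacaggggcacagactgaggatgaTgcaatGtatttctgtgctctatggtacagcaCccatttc

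Iglv1 made up most of the lambda chain everywhere, and it was very abundant in the library labelled IL10-KO 1. Its level was 128, 7.55 and 10.9 FPKM in the WT libraries and 676, 101 and 86.3 FPKM in the IL10-KO-labelled ones (log2 fold change 2.95, SE 1.22, adjusted p = 0.487 by limma). In the library labelled IL10-KO 1 it held 35.6% of all V segment FPKM, the highest share of any segment in any library. Iglv1 held 70.7%, 84% and 77.4% of lambda FPKM in WT and 96.8%, 83.9% and 88.9% in the IL10-KO-labelled libraries. Iglv2 was 39.95, 1.24 and 3.17 FPKM in WT, against 10.8, 15.3 and 7.88 FPKM in the libraries labelled IL10-KO. Iglv3 was 13, 0.199 and 0 FPKM in the WT libraries and 11.6, 4.17 and 2.9 FPKM in the IL10-KO-labelled ones. Neither of them was at its highest in the library labelled IL10-KO 1. Lambda segments held 7.92%, 6.84% and 13.7% of light chain V FPKM in WT and 43.8%, 12.5% and 12.3% in the IL10-KO-labelled libraries. The means were 9.47% ± 3.66 and 22.9% ± 18.2 (SD, n = 3, exact permutation p = 0.3), and the groups overlapped. Without the library labelled IL10-KO 1 the difference dropped from 13.4 to 2.9 percentage points. Iglj1, a short lambda J segment, was at 261 FPKM (125 reads) in that library and at 0 to 34.2 FPKM (0 to 21 reads) in the others. The lambda constant gene Iglc1 was at 2167 FPKM there and at 12 to 243 FPKM in the others.

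Ighv2-2, the most dominant heavy segment, is shown with its closest relative, Ighv2-4. These are the last 300 of 304 bases of the V exon, on the minus strand of GRCm38 at chr12:113588267-113588566 and chr12:113653291-113653590. Capitals mark the 6 bases that differ, and the longest stretch without a difference is 124 bases.
Ighv2-2: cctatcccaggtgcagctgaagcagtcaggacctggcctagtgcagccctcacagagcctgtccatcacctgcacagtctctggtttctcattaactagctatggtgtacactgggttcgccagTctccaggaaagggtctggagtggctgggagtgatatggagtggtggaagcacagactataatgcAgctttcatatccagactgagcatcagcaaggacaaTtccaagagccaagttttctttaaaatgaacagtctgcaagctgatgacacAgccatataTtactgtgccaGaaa
Ighv2-4: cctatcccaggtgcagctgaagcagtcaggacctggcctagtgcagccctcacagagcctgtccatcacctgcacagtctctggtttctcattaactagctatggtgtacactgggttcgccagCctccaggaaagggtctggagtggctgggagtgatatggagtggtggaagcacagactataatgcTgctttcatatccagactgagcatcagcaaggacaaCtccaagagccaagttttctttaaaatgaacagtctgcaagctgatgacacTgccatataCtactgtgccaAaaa

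In the heavy chain a single segment held over 10% of FPKM in the libraries labelled IL10-KO 1 and 2 and in no other library. Ighv2-2 held 28.4% in the first, with 382 of 1383 reads (27.6%, exact interval 25.3% to 30.1%). Ighv1-52 held 19.6% in the second, with 387 of 2044 reads (18.9%, exact interval 17.3% to 20.7%). The intervals are Clopper-Pearson at 95% and cover counting error only. The leading segment held 6.91% in the library labelled IL10-KO 3 (Ighv1-52). In WT libraries 1 to 3 it held 4.59% (Ighv1-76), 8.78% (Ighv1-26) and 7.72% (Ighv9-3). The last 2 rested on 20 of 237 reads (8.44%, exact interval 5.23% to 12.7%) and 26 of 353 reads (7.37%, exact interval 4.87% to 10.6%). The mean share was 7.03% ± 2.18 and 18.3% ± 10.8 in WT and IL10-KO-labelled libraries (SD, n = 3, exact permutation p = 0.3), and the groups overlapped. The difference of 11.3 percentage points was 6.25 without the library labelled IL10-KO 1 and 17 without the library labelled IL10-KO 3.

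The heavy chains of the 6 libraries were led by 5 different segments. Ighv2-2 was 1.58, 0 and 0 FPKM in WT, against 86, 5.06 and 0.523 FPKM in the libraries labelled IL10-KO (log2 fold change 2.76, SE 1.37, adjusted p = 0.549 by limma). With a WT mean of 0.528 FPKM, it passed the filter of 1 FPKM only through the IL10-KO-labelled libraries. Ighv2-4 was at 2.72 FPKM in the library labelled IL10-KO 1 and at 0 to 0.708 FPKM elsewhere. Ighv1-52 was 5.47, 0.216 and 0 FPKM in the WT libraries and 2.93, 70.1 and 14.7 FPKM in the IL10-KO-labelled ones (log2 fold change 3.04, SE 1.14, adjusted p = 0.459). Each was thus high in 1 library, with a lower second value in the same group. Ighv3-5 was at 19.7 FPKM in the library labelled IL10-KO 1 and at 0 to 1.05 FPKM in the others. Ighv5-16 was at 23.9 FPKM in the library labelled IL10-KO 2 and at 0 to 2.77 FPKM in the others. WT library 1 had no such leader: its 3 highest heavy segments, Ighv1-76, Ighv1-81 and Ighv1-26, were at 18.4, 17.1 and 16.6 FPKM.

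Evenness was measured as the effective number of segments, the inverse of the sum of squared FPKM shares, which is low where few segments hold most of a chain. For heavy segments it was 40.9, 29.3 and 22.9 in WT and 9.93, 16.5 and 32.8 in the IL10-KO-labelled libraries (means of WT and IL10-KO-labelled libraries 31 ± 9.16 and 19.7 ± 11.8, SD, n = 3, exact permutation p = 0.3). The library labelled IL10-KO 3 lay within the WT range. The difference of -11.3 was -6.36 without WT library 1, -6.42 without the library labelled IL10-KO 1 and -17.8 without the library labelled IL10-KO 3. The fewest segments that held 50% of heavy chain FPKM numbered 15, 11 and 9 in WT, against 5, 8 and 13 in the libraries labelled IL10-KO. Heavy segments with at least 1 read numbered 83, 54 and 41 in the WT libraries and 73, 73 and 70 in the IL10-KO-labelled ones, with 237 to 2368 heavy chain reads per library.

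Kappa usage was more concentrated in each IL10-KO-labelled library than in each WT library, around a different segment each time. The leading kappa segment held 12.1%, 8.02% and 7.76% in WT and 15.5%, 17.9% and 21.4% in the IL10-KO-labelled libraries. The groups did not overlap (means 9.3% ± 2.45 and 18.3% ± 2.98, SD, n = 3), with an exact permutation p of 0.1, the smallest possible here. The 5 highest segments together held 39.2%, 31.8% and 29.8% in WT, against 42.6%, 47.6% and 49% in the libraries labelled IL10-KO. The effective number of kappa segments was 22.3, 28.2 and 27.9 in the WT libraries and 18.3, 15.6 and 12.6 in the IL10-KO-labelled ones (means of WT and IL10-KO-labelled libraries 26.1 ± 3.35 and 15.5 ± 2.84, SD, n = 3, exact permutation p = 0.1). The groups did not overlap, and they did not when an unbiased index of the reads, which allows for depth, was used: 22.2, 29.95 and 30.01 in WT and 18.5, 15.8 and 11.6 in the IL10-KO-labelled libraries. Kappa reads per library ranged from 420 to 12525. WT library 1, with the most of them, had the WT values nearest to the other group.

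**Figure D2:**
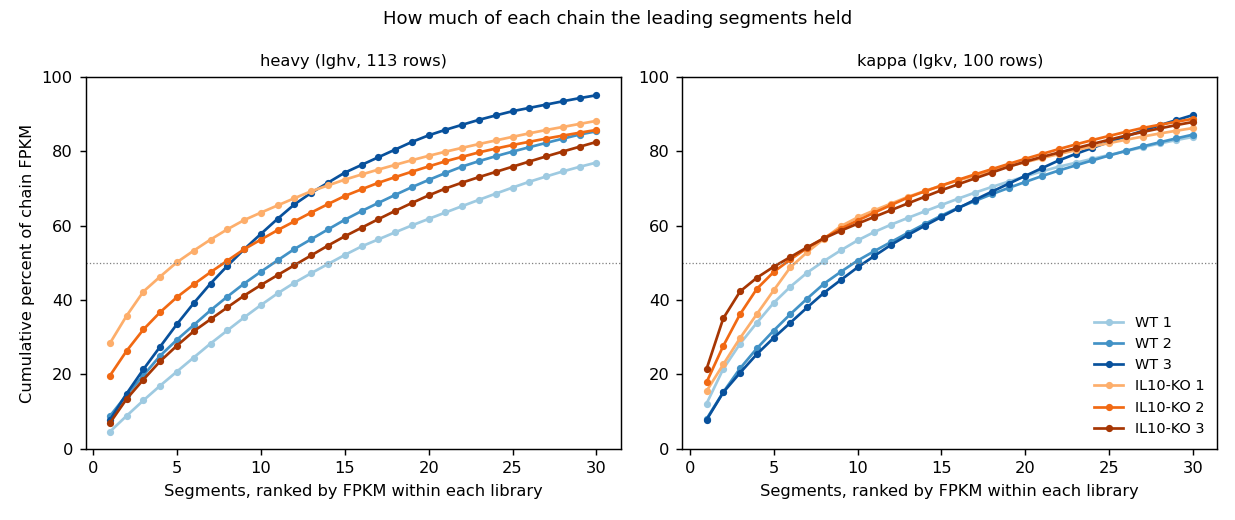
Cumulative percent of chain FPKM held by the segments of each library, ranked from the highest, for the heavy and the kappa chain, with a line for each library and a dotted line at 50%. The heavy curves of the libraries labelled IL10-KO 1 and 2 start at 28.4% and 19.6%, above the other 4, and the kappa curves of the IL10-KO-labelled libraries start at 15.5 to 21.4%, above those of WT at 7.76 to 12.1%.

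Igkv17-127 and Igkv17-121 led different libraries although they are near copies. Their V exons of 298 bases lie on the plus strand of GRCm38 at chr6:67861362-67861659 and chr6:68037021-68037318. Capitals mark the 6 bases that differ, and the longest stretch without a difference is 143 bases.
Igkv17-127: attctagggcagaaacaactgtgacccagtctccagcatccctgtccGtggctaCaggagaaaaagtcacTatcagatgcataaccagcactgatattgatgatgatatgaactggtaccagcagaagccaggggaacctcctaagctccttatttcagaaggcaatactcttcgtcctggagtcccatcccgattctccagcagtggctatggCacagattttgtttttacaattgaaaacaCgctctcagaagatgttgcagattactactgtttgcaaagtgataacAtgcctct
Igkv17-121: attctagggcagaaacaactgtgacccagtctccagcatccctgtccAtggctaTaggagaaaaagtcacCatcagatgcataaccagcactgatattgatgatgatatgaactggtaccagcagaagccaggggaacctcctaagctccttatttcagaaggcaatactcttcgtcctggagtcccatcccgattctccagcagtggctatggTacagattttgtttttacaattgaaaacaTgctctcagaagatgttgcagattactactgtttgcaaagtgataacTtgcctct

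Igkv1-117 and Igkv1-110, shown next, were the 2 highest kappa segments of the library labelled IL10-KO 3, with 21.4% and 13.7% of its kappa FPKM. The last 300 of 313 bases of their V exons lie on the plus strand at chr6:68121528-68121827 and chr6:68270968-68271267. Capitals mark the 10 bases that differ, and the longest stretch without a difference is 142 bases. How reads that fit both relatives were placed is not stated, so the split within each printed pair is uncertain. The same holds for other close relatives of named segments. By identity of the V exon these include Ighv1-52 with Ighv1-61 (98.7%), Igkv8-28 with Igkv8-19 (97.8%) and Igkv6-13 with Igkv6-23 (96%).
Igkv1-117: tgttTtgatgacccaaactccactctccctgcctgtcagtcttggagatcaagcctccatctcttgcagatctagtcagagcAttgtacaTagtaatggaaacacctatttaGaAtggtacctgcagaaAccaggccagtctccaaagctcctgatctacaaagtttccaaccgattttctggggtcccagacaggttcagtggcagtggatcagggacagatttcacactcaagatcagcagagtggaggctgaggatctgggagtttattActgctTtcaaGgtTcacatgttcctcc
Igkv1-110: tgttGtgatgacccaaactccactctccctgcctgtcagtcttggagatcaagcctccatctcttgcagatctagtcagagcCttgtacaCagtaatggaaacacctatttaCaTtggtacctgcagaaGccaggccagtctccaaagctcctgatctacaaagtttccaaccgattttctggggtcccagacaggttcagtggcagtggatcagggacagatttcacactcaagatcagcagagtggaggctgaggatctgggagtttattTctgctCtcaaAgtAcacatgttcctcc

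Each IL10-KO-labelled library had its own leading kappa segment. Igkv6-13 led the first and was 16.4, 0 and 0 FPKM in WT, against 139, 2.13 and 3.42 FPKM in the libraries labelled IL10-KO. Igkv17-127 led the second and was 79.4, 1.05 and 3.88 FPKM in the WT libraries and 5.96, 152 and 6.32 FPKM in the IL10-KO-labelled ones. Igkv1-117 led the third and was 112, 4.87 and 3.64 FPKM in WT and 63.3, 38.4 and 148 FPKM in the IL10-KO-labelled libraries. The last 2 were also high in WT library 1, and by limma the adjusted p of the 3 was 0.704, 0.864 and 0.577. Igkv4-58 was 4.85, 0 and 0 FPKM in WT, against 64.6, 2.66 and 0 FPKM in the libraries labelled IL10-KO, so it was high only where Igkv6-13 led. WT library 1 was led by Igkv17-121, which was 255, 3.13 and 6.61 FPKM in the WT libraries and 9.17, 2.98 and 0.338 FPKM in the IL10-KO-labelled ones. Its next segment, Igkv1-99, was 197, 3.02 and 1.23 FPKM in WT and 4.64, 26.2 and 0.163 FPKM in the IL10-KO-labelled libraries. Both were far lower in WT libraries 2 and 3. Igkv6-23 was 92.2, 5.13 and 1.89 FPKM in WT, against 57.8, 83.4 and 14.1 FPKM in the libraries labelled IL10-KO, and Igkv15-103 was 21.8, 5.45 and 1.86 FPKM in the WT libraries and 14.2, 28.8 and 50.05 FPKM in the IL10-KO-labelled ones. Igkv10-96 was among the 3 highest kappa segments in all WT libraries. It held 6.76%, 6.37% and 7.76% of kappa FPKM in WT and 6.36%, 6.83% and 2.61% in the IL10-KO-labelled libraries, a like share in 5 of the 6 libraries. Igkv6-15, which led WT library 2, was 48, 9.82 and 4.46 FPKM in WT, against 17.1, 11.2 and 12.4 FPKM in the libraries labelled IL10-KO.

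**Figure D3:**
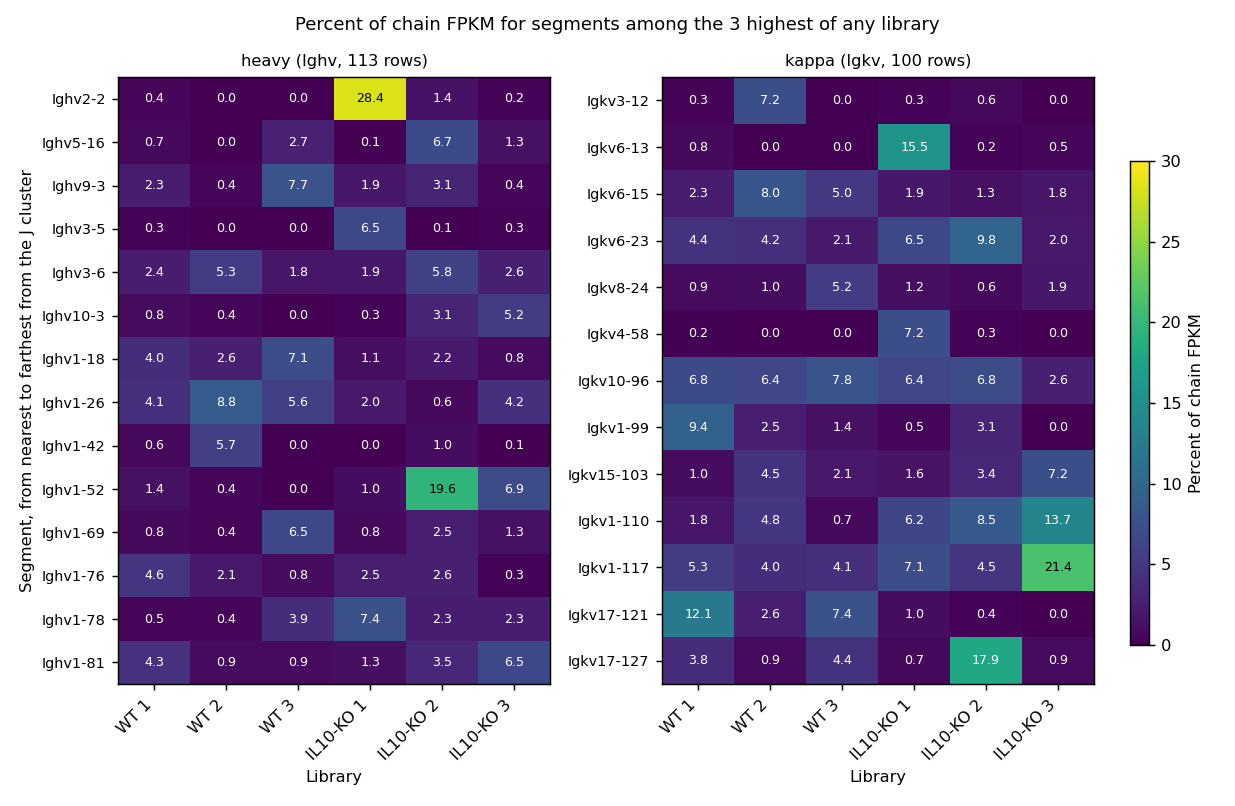
Percent of chain FPKM in each library for the 14 heavy and 13 kappa segments that were among the 3 highest of any library, ordered by distance from the J cluster. Colour and number give the percent. Ighv2-2 at 28.4%, Igkv6-13 at 15.5% and Igkv17-127 at 17.9% each peak in 1 library labelled IL10-KO.

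Heavy chain families were used in different proportions. Ighv1, the largest family with 53 segments, held 62.5%, 66.7% and 64.1% of heavy chain FPKM in the WT libraries and 38.3%, 51.9% and 56.2% in the IL10-KO-labelled ones. The groups did not overlap (means 64.4% ± 2.1 and 48.8% ± 9.34, SD, n = 3, exact permutation p = 0.1). The difference of -15.6 percentage points was -10.4 without the library labelled IL10-KO 1. Most Ighv1 segments, 48 of 53, lie farther from the J segments than the median heavy segment. The 57 segments at or within the median distance held 35.7%, 31.2% and 31% in WT and 64.2%, 48.7% and 44.5% in the IL10-KO-labelled libraries (means 32.6% ± 2.66 and 52.5% ± 10.4, SD, n = 3, exact permutation p = 0.1). Both comparisons were chosen after the values were seen, and they concern largely the same segments. With the leading segment of each library left out, these nearer segments held 37.4%, 34.2% and 25.3% in WT, against 50.1%, 60.7% and 47.8% in the libraries labelled IL10-KO. The exact 95% intervals of their read share ended at 37.5% or lower in WT and began at 42.4% or higher in the other group. These intervals cover counting error within a library only, not the spread between libraries, so they do not test the groups.

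Among 16 heavy chain families, 2 were higher in every IL10-KO-labelled library and, Ighv1 included, 3 were lower, against 8.84% and 7.89% of all genes. The measures are unlike, since the percentages count single genes by FPKM and family shares within a chain depend on each other. Apart from Ighv1 these families were not tested, and they were picked out after their values were seen. The families with higher shares were Ighv6 and Ighv7. Ighv7 held 2.16%, 0.425% and 0.577% in the WT libraries and 3.9%, 7.07% and 6.28% in the IL10-KO-labelled ones. Ighv8 held 6.58%, 6.46% and 10.2% in WT and 0.876%, 1.05% and 5.08% in the IL10-KO-labelled libraries, and Ighv9 held 5.43%, 5.71% and 8.61% in WT, against 2.53%, 4.31% and 0.411% in the libraries labelled IL10-KO. Ighv2 held 31.7% in the library labelled IL10-KO 1, through Ighv2-2, and 1.13 to 8.27% in the others.

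The kappa locus showed no separation of the groups by position. Its 50 nearer segments held 36.6%, 49.8% and 45.2% of kappa FPKM in the WT libraries and 51.3%, 37.9% and 38.4% in the IL10-KO-labelled ones. Kappa segments lie on both strands, and the 62 on the minus strand held 42.4%, 49.5% and 57% in WT and 66.5%, 48% and 41.2% in the IL10-KO-labelled libraries. The groups overlapped in both. Among 20 kappa families, 2 (Igkv7 and Igkv8) were higher in every IL10-KO-labelled library and 1 (Igkv14) lower, beside 8.84% and 7.89% of all genes. As for the heavy families, these percentages count single genes by FPKM, which is an unlike measure. Igkv8 held 2.87%, 6.2% and 5.25% in WT, against 6.24%, 9.09% and 9.63% in the libraries labelled IL10-KO, so its groups nearly met, and Igkv14 held 6.28%, 6.25% and 3.08% in the WT libraries and 2.25%, 2.28% and 2.29% in the IL10-KO-labelled ones. Igkv1 held 36.7% in the library labelled IL10-KO 3 and 7.34 to 19.2% in the others. Igkv4, the largest kappa family with 26 segments, held 20.3% in the library labelled IL10-KO 1 and 7.67 to 12.3% in the others.

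**Figure D4:**
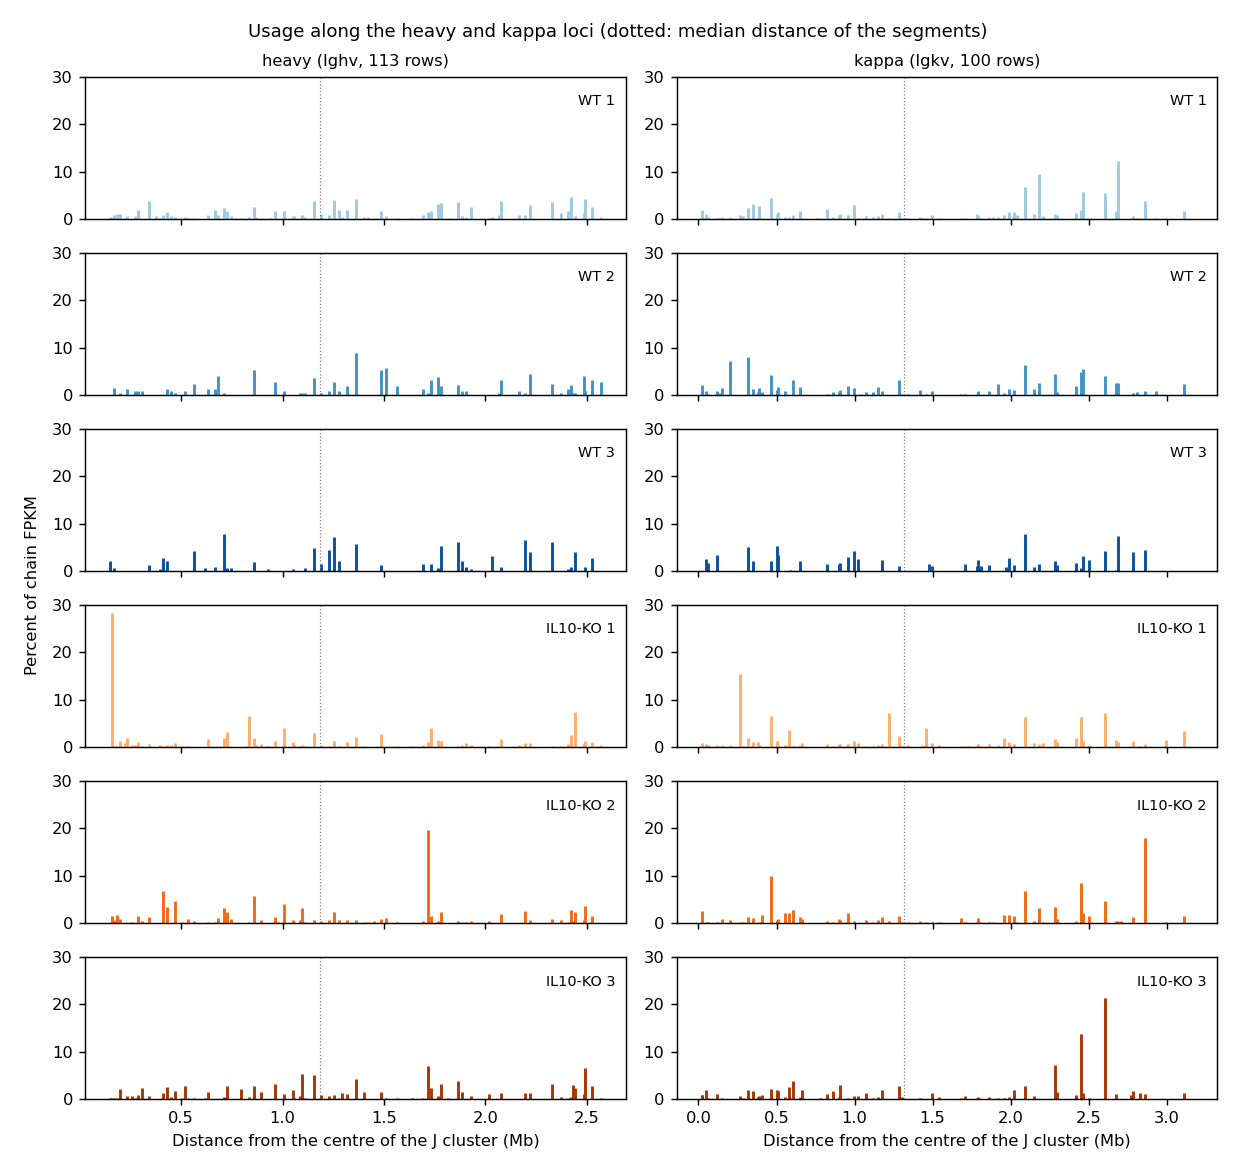
Percent of chain FPKM of each heavy and kappa segment against its distance in Mb from the centre of the J cluster, with a panel for each library and a dotted line at the median distance. The tallest lines are the heavy segment of the library labelled IL10-KO 1 at 28.4% and the kappa segment of the library labelled IL10-KO 3 at 21.4%, and WT panels reach at most 12.1%.

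The number of leading segments that 2 libraries shared had overlapping ranges within and across the labels. Of the 10 highest heavy segments of each library, pairs of WT libraries shared 2 to 6, pairs of IL10-KO-labelled libraries 2 to 3, and pairs across the labels 1 to 6. For kappa these numbers were 3 to 5, 4 to 6 and 2 to 7. The share of kappa FPKM in common, summed segment by segment, was 50.6% to 63.7% within WT, 49.2% to 53.2% within the IL10-KO label and 39.2% to 57.3% across the labels. Reads were found in at least 1 library for 187 of the 218 segments and in all 6 for 65. Many segments have close relatives: 104 had another of their chain at 95% identity or more over the V exon, and 20 at 98% or more. The V exons of Ighv1-62-2 and Ighv1-71 were identical. Ighv1-62-2 was at 0 to 2.27 FPKM, and Ighv1-71 had no read in any library. The 155 V pseudogenes took 0 to 13 reads per library in all.

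V segments had lower levels per length than the constant genes they are spliced to. Summed kappa V FPKM was 12.8%, 14% and 22.1% of the level of Igkc, the kappa constant gene, in WT and 13.3%, 21.4% and 11.5% in the IL10-KO-labelled libraries. Heavy V FPKM was 10.3%, 16.9% and 48.2% of the heavy constant genes in WT, against 11%, 31.7% and 13.3% in the libraries labelled IL10-KO. Lambda V FPKM was 47.6%, 42.8% and 46.1% of the lambda constant genes in the WT libraries and 30.5%, 85.2% and 45.8% in the IL10-KO-labelled ones. Lambda constant genes held 2.26%, 2.35% and 7.05% of light chain constant FPKM in WT and 25.3%, 3.46% and 3.41% in the IL10-KO-labelled libraries, so the library labelled IL10-KO 1 stood apart there as it did in V segments. Igha, which encodes the IgA constant region, was 2979.9, 276 and 118 FPKM in WT, against 2559, 1033 and 1408 FPKM in the libraries labelled IL10-KO, the highest heavy chain constant gene in every library. Of 11 constant genes that passed the filter, 10 had a fold change above 0, against 54.1% of all genes, and 0 were called by limma, against 0.182% called higher. At an unadjusted p under 0.05, 1 was higher, against 6.14% of all genes. That gene, Ighg1, named after its values were seen, was 4.33, 0.263 and 1.73 FPKM in the WT libraries and 41, 8.17 and 15.5 FPKM in the IL10-KO-labelled ones (adjusted p = 0.277).

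Genes that assemble, mutate and express V segments were not called either. Beside the counts that follow, 54.1% of all genes had a fold change above 0, and at an unadjusted p under 0.05 6.14% were higher and 4.03% lower. Of 17 genes of V(D)J recombination, 10 passed the filter and 0 were called by limma (0 at an unadjusted p under 0.05), with 7 above 0 and a median log2 fold change of 0.19. Rag1, which cuts the recombination signals, had no read in any library. Of 12 genes of hypermutation and class switching, 8 passed and 0 were called (1, Mad2l2, at an unadjusted p under 0.05), with 5 above 0 and a median of 0.07. Of 19 genes of immunoglobulin transcription and assembly, 15 passed and 0 were called, with 14 above 0 and a median of 0.47. The 2 at an unadjusted p under 0.05 were Irf8 and Spi1, transcription factors that myeloid cells also use. Pou2af1, a coactivator of immunoglobulin promoters, was 10.6, 0.683 and 1.27 FPKM in WT and 11.1, 3.24 and 3.97 FPKM in the IL10-KO-labelled libraries. Prdm1, which drives plasma cell differentiation, was 1.41, 11.7 and 0.915 FPKM in WT, against 3.08, 8.56 and 2.92 FPKM in the libraries labelled IL10-KO.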

How the data were processed

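Colon RNA was measured in 6 libraries, grouped and numbered by sample title. The authors deposited FPKM values for 54532 genes in 1 table, with gene lengths, coordinates and biotypes per the file headers. Bowtie 0.12.2 and the builds hg38 and mm8 are named, without a role, in the submitters' processing notes. The counter, strand setting and treatment of reads with several matches are each not given in the sources used here, so segments that share sequence, overlap or lie antisense to another gene are uncertain. All 218 V segments had the coordinates of GENCODE M21 (GRCm38), which also gave the sequences. Multiplied by gene length, 100% of the FPKM values above 0 were whole multiples of the smallest value of their library (tolerance 0.01), which gave the recovered reads. The unit remained FPKM. No library repeated another (chi-square per gene at least 60.7).

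Shares and effective numbers were computed from FPKM within a chain, and single values were compared by exact two-sided permutation tests over libraries. Genes with a mean of at least 1 FPKM were fitted as log2(FPKM + 1) with limma 3.58.1 in R 4.3.3 (eBayes with the mean trend, not robust, no block), with Benjamini-Hochberg adjustment over all genes tested. The fit was tested on simulated data. Other steps used Python 3.11.15, scipy 1.17.1 and matplotlib 3.10.9. Alternatives were other pseudocounts, filters and scalings, library weights, a replicate block, voom on recovered reads, shares of reads, and leaving out each library.

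Named segments were the 3 highest of each library in the heavy and kappa chains, all lambda segments, any called segment, and the 5 highest and 5 lowest fold changes among tested segments whose groups did not overlap. Relatives of a shown segment and any other are named as such. The members and lists were chosen with earlier results of these data known.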

Additional observations from a re-analysis of the deposited data

How the results depend on the processing

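The number of V segments called was 0 except with TPM (1, Igkv7-33), with a weight per library (2, Ighv3-8 and Igkv7-33) and without WT library 1 (1, Igkv8-28). It was thus 0 to 1 when each library was left out. Igkv7-33 and Ighv3-8 passed the filter only through the libraries where they were high, so these calls lend no support to a difference. The median log2 fold change of tested segments was 0.13 to 1.36 on leaving out each library, and -0.54 with a weight per library, the opposite sign. These weights were 2.76 for WT library 1 and 0.198 and 0.465 for WT libraries 2 and 3, so the weighted WT level leaned on WT library 1. Without the highest segment of each chain and library, the lambda share of light chain FPKM differed by -0.0779 percentage points, against 13.4 with it. The segment left out was always Iglv1, with 70.7 to 96.8% of lambda FPKM. Most of the chain was thus removed, and a drop was built in. The heavy share of V segment FPKM differed by -6.65 percentage points and by -13.2 to 0.299 on leaving out each library, with the lowest value without WT library 1 and the positive one without WT library 3. Leaving out each library gave log2 differences of 0.97 to 2.93 for all V segments, 0.72 to 2.23 for heavy, 0.67 to 2.95 for kappa and 1.93 to 4.16 for lambda. It gave 2.9 to 18.7 for the lambda share, 6.25 to 17 and 7.38 to 10.4 for the leading heavy and kappa segment, -17.8 to -6.36 and -12.6 to -9.17 for the effective numbers, 14 to 23.8 for the nearer heavy segments and -19.3 to -10.4 for the Ighv1 family. The last 2 results were added after seeing the data. The cause of the shifts on leaving out a library was not tested. Of 86 values under other changed settings, 82 kept their direction or, for the number of segments called, stayed at 0. Some of these could not change. The replicate block alters only the p-value of a difference. The median fold change is the same by construction with the block, without the trend and in the robust fit. Same-numbered libraries did not all deviate together (r = -0.149, 0.18 and 0.396), so the numbers were not taken as pairs. With the replicate block 0 segments were called, and 7 genes in all were called higher, against 23 without it. Counting error limits WT libraries 2 and 3 most, with 879 and 843 V segment reads. They were not shallow, with 15797928 and 13747377 recovered reads in all, against 13107941 in WT library 1.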
